A study of Mus musculus with 10 samples.

Results

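RNA-seq counts of the cochlea were used to describe 33 genes of the presynaptic vesicle release machinery, taken by gene symbol out of the 54532 genes counted. All 33 passed the filter on low counts and were tested among 18329 genes. The mice were mtKeima mice, a transgenic line with a pH-sensitive fluorescent protein in mitochondria, aged 12 months. The 5 NR-treated mice drank water with nicotinamide riboside (NR), a precursor of NAD+, at 7 mg/ml (24 mM). NR was started when they were 2 months old and kept up for 10 months, and the 5 controls, here called non-treated (Vehicle in the labels), drank regular water. Every mouse carried the mtKeima transgene, and the paper's methods describe a mixed background that is wild type for the cadherin 23 and Nnt alleles typed. Each library was a whole dissected cochlea, so fewer neurons and less RNA per neuron cannot be told apart.

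The labels give all 10 mice as female, but the counts go against them. Xist, the RNA of the inactive X chromosome, was at 0.088 to 0.41 CPM, while the Y-linked Ddx3y was at 64.5 to 85.0 CPM and Eif2s3y at 54.9 to 68.5 CPM in all 10 libraries. The paper's methods describe male mice. The total count lay between 17060379 and 22931581 in NR-treated mice and between 20004667 and 24419230 in non-treated mice. The least counted member, Syt5, had 21 reads in its lowest library and the most counted, Snap25, at least 19797.

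Neurons release transmitter by fusing synaptic vesicles with the plasma membrane at the active zone. The SNARE proteins on vesicle and membrane zip together, Munc13 proteins (Unc13 genes) and RIM prime the vesicle, synaptotagmins sense calcium and complexins clamp and trigger fusion, after which NSF with its SNAP adaptors takes the SNARE complex apart and clathrin, dynamin and amphiphysin retrieve the membrane. In the cochlea, spiral ganglion neurons carry sound signals to the brainstem, and inner hair cells release transmitter at ribbon synapses with otoferlin as the main calcium sensor. Some members, such as Napa, Cltb and Ap2m1, are used in all cells, and the cells that each read came from are not known in whole tissue.

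By symbol, 27 of the 33 members were found in the RefSeq promoter table of GRCm38.p6, which gave 35 windows of 250 bases before and 50 after the start. A window is given for 5 members, because the contrast of abundant and rare paralogs in the results turns on Syn1 against Syn2 and Unc13a against Unc13c, and on Syt1. The windows are Syn1 at chrX:20920869-20921168 on the minus strand, Syn2 at chr6:115134652-115134951 on the plus strand, Unc13a at chr8:71671708-71672007, Unc13c at chr9:73968988-73969287 and Syt1 at chr10:109010926-109011225, the last 3 on the minus strand. Capitals mark the motifs searched on both strands, which are the left half-site of RE1 (TTCAGCACC, bound by the neuronal repressor REST), the cAMP response element (TGACGTCA), the GC box (GGGCGG) and TATAAA.
Syn1: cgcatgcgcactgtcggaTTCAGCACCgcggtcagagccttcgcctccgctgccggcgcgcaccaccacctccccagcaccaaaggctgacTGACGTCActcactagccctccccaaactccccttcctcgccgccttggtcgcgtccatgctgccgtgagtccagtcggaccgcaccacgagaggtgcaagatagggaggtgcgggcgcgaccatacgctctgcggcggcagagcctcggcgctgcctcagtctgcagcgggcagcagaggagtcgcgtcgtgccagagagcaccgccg
Syn2: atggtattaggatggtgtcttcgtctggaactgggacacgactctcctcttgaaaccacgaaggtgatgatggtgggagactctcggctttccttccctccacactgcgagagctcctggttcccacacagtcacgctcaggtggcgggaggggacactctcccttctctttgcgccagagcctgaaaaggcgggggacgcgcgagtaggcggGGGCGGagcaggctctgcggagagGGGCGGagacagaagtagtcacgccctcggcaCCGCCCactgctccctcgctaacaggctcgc
Unc13a: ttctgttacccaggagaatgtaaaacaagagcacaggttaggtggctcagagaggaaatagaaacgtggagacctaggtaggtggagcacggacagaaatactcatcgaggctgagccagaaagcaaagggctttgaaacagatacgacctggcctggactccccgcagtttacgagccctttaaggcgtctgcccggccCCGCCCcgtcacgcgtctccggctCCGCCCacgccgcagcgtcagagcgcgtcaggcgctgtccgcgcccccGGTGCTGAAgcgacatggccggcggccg
Unc13c: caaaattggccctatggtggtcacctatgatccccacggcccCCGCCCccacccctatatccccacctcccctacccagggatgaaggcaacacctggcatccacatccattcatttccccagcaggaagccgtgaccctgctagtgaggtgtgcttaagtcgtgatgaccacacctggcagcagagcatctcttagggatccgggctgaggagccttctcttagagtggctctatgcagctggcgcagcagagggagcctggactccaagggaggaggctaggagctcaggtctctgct
Syt1: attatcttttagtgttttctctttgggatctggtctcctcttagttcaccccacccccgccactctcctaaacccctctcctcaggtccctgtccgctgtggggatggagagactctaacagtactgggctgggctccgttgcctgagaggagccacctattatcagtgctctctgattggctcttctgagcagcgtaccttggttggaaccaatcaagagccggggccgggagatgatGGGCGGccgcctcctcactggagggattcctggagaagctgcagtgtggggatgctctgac
Syn1 and Unc13a held the RE1 half-site, which was in 2 of the members' 35 windows (5.71%) and in 0.371% of all 32851 windows of the table. Each is the most abundant paralog of its family per kilobase of exon. Vamp1, Napa, Cplx1, Syt11, Sv2a and Dnm1 also lead their families, and their windows did not hold the half-site. In Syn1 it began 232 bases before the start, and in Unc13a it lay 22 to 30 bases after it. The cAMP response element was found in Cltb, Napa and Syn1 (8.57% of windows, against 1.79% of all), the GC box in 62.9% against 35.7%, and TATAAA in 5.71% against 13.6%, in Sv2b only. The members' windows also held more G and C, with a median of 61.3% against 52.7% over all windows, and its part in the motif shares was not tested. The motifs were chosen with the results known, and a match describes letters in these windows and not a bound site.

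Of the 33 members, 8 were higher in NR-treated mice at an unadjusted p of 0.05 (24.2%) and 0 were lower. Of all 18329 genes tested, 4.83% were higher and 4.88% were lower by the same rule. No member passed an adjusted p of 0.05, as was the case for 0% of all genes (edgeR's quasi-likelihood test with Benjamini-Hochberg adjustment), where the smallest adjusted p was 0.452 among the members and 0.224 among all genes. DESeq2 called 0 members after adjustment, where it called 102 of all 33153 genes. At an unadjusted p of 0.05 it called 9 members, all higher, where 3.5% of all genes were higher and 3.08% lower. The median log2 fold change was 0.14 over the members, with 28 above 0 and 5 below (Napa, Syt2, Syt7, Syn3 and Unc13b), and -0.01 over all genes tested. No member had groups that did not overlap, which for higher levels in NR-treated mice held for 0.769% of all genes.

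**Figure D1:**
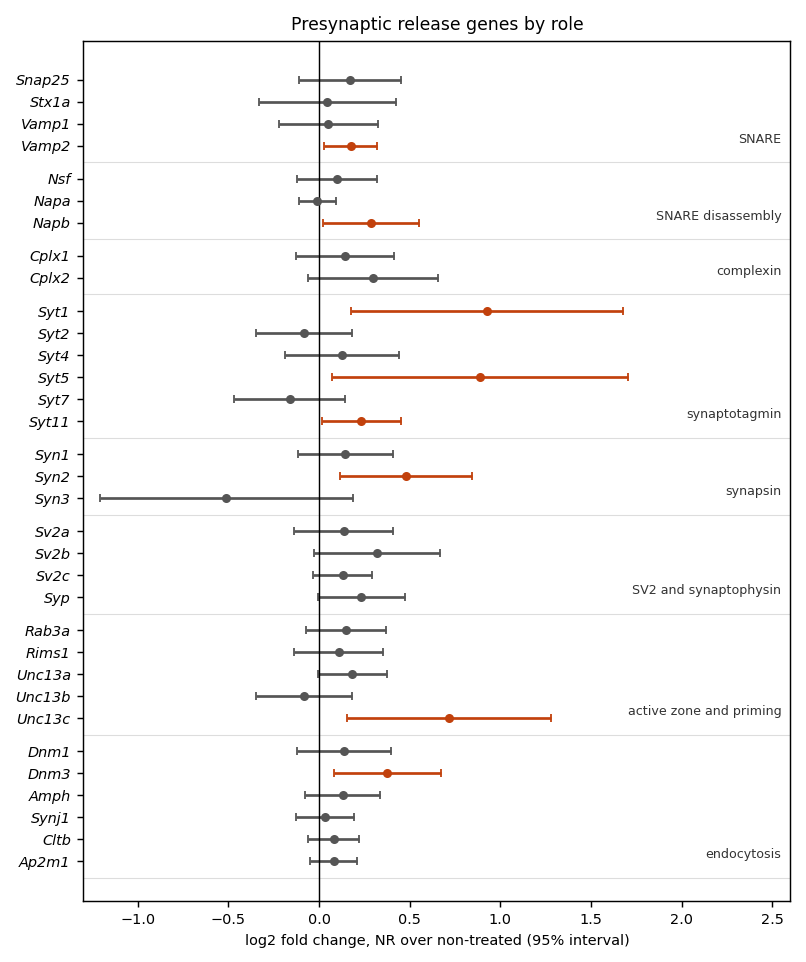
Log2 fold change of NR-treated over non-treated mice (x axis) for each of the 33 members (y axis), grouped by role, with 95% confidence intervals from edgeR. Points in orange had an unadjusted p of 0.05 or less, and the intervals of the other 25 members include 0.

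Among the SNARE genes, 1 of 4 was higher at an unadjusted p of 0.05. This was Vamp2, the vesicle SNARE of most brain synapses. Vamp2 was at 277, 284, 284, 241 and 287 CPM in the NR-treated mice and at 248, 235, 219, 261 and 255 CPM in the non-treated mice. All but NR mouse 4 lay above every non-treated mouse. The log2 fold change was 0.17 (SE 0.07, edgeR p = 0.0247, adjusted p = 0.476, exact permutation p = 0.0317). Vamp1, the paralog that prevails in the cochlea, was at 803, 997, 828, 935 and 822 CPM in NR-treated mice and at 717, 1010, 781, 706 and 1020 CPM in non-treated mice, where mice 2 and 5 were the highest of all 10. Its log2 fold change of 0.05 (SE 0.12) was smaller than its error. Snap25, a SNARE of the plasma membrane, ranged from 1157 to 1419 CPM with NR and from 906 to 1399 CPM without (log2 fold change 0.17, SE 0.13). Stx1a, the syntaxin partner of Snap25, was low, at 8.59 ± 1.83 against 8.32 ± 1.33 CPM (SD, n = 5 each), and its groups overlapped.

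Of the 3 genes that take SNARE complexes apart, Napb was the member higher at an unadjusted p of 0.05. Napb encodes beta-SNAP, the neuronal form of the adaptor that recruits NSF. It was at 193, 244, 239, 224 and 217 CPM in NR-treated and at 165, 206, 137, 185 and 223 CPM in non-treated mice. NR mice 2, 3 and 4 were above every non-treated mouse, and non-treated mouse 3 was the lowest (log2 fold change 0.29, SE 0.12, edgeR p = 0.0377, adjusted p = 0.490, exact permutation p = 0.0476). Napa, the alpha-SNAP gene used in all cells, was nearly level, at 250, 250, 244, 246 and 259 CPM against 254, 253, 250, 234 and 265 CPM. Its log2 fold change of -0.01 had a 95% interval from -0.11 to 0.09, and its sign turned to above 0 with upper quartile normalization. The ATPase gene Nsf was between 321 and 391 CPM with NR and between 285 and 413 CPM without (log2 fold change 0.10, SE 0.10).

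Neither complexin passed an unadjusted p of 0.05. Cplx1 was the most abundant member per length, at 405 CPM per kilobase of exon (mean of 10 mice). Its levels were 871, 1011, 934, 927 and 915 CPM in NR-treated mice and 752, 1023, 716, 698 and 1027 CPM in non-treated mice. The NR-treated mice lay close together, inside the range of the non-treated ones (log2 fold change 0.14, SE 0.12). Cplx2 was at 24.3, 17, 24.9, 28.1 and 27.3 CPM against 27.1, 18.8, 17.6, 19.4 and 16.1 CPM. NR mouse 2 and non-treated mouse 1 went against the rest of their groups, and the log2 fold change was 0.30 (SE 0.16, edgeR p = 0.0940, adjusted p = 0.577, exact permutation p = 0.159).

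The synaptotagmins held 3 of the 8 genes, Syt1, Syt5 and Syt11. Syt1 (chr10:108497650-109010982), the calcium sensor of fast release at forebrain synapses, had the largest log2 fold change of the 33 members. Its levels were 79.2, 56.6, 95.2, 56.5 and 97.7 CPM with NR and 64.5, 33, 13.1, 48.4 and 44.1 CPM without. NR mice 1, 3 and 5 were above every non-treated mouse, non-treated mouse 1 was the next, and non-treated mouse 3 was far below the rest (log2 fold change 0.92, SE 0.34, edgeR p = 0.0202, adjusted p = 0.464, exact permutation p = 0.0238).

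Syt5, a vesicle synaptotagmin that was rare in the cochlea, was at 8.10, 3.36, 3.55, 5.24 and 4.23 CPM in NR-treated and at 2.53, 3.41, 4.33, 1.94 and 0.9751 CPM in non-treated mice. NR mice 1 and 4 were above all non-treated mice, and the others overlapped (log2 fold change 0.89, SE 0.37, edgeR p = 0.0360, adjusted p = 0.488, exact permutation p = 0.0556). Syt11 does not bind calcium and was the most abundant of the 6 member synaptotagmins per length. It was at 447, 465, 494, 475 and 524 CPM against 403, 457, 341, 363 and 482 CPM, with NR mice 3 and 5 above every non-treated mouse (log2 fold change 0.23, SE 0.10, edgeR p = 0.0363, adjusted p = 0.488, exact permutation p = 0.0556). Syt2, the fast sensor of auditory brainstem synapses, was at 377 ± 44.0 CPM with NR and 399 ± 67.0 CPM without (SD, n = 5 each), with a log2 fold change of -0.08 (SE 0.12). Syt7, a slow high-affinity sensor, had -0.16 (SE 0.14), and Syt4 had 0.13 (SE 0.14), also without passing the test.

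Of the synapsins, which tether vesicles to each other in the reserve pool, Syn2 (chr6:115134902-115282006) was higher at an unadjusted p of 0.05. Syn2 was at 52.1, 42.6, 51.1, 38.3 and 53.1 CPM with NR and at 44.8, 33.7, 22.7, 30.2 and 39.1 CPM without. NR mice 1, 3 and 5 were again above every non-treated mouse, followed by non-treated mouse 1 (log2 fold change 0.48, SE 0.17, edgeR p = 0.0149, adjusted p = 0.452, exact permutation p = 0.0397). Syn1, the main synapsin, was at 166, 162, 158, 150 and 168 CPM against 158, 166, 116, 113 and 174 CPM. Non-treated mice 3 and 4 stood below the other 8 mice, and the log2 fold change was 0.14 (SE 0.12). Syn3, the rarest member, was at 2.36, 3.18, 2.16, 3.19 and 3.65 CPM with NR and at 2.88, 2.07, 6.11, 6.44 and 3.16 CPM without. The same mice 3 and 4 were the highest for Syn3 (log2 fold change -0.51, SE 0.32, edgeR p = 0.134, exact permutation p = 0.325). Exons of Timp3 on the opposite strand overlap 14.1% of the Syn3 exon bases. The effect of this overlap on the Syn3 counts, which ignore strand, was not tested.

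**Figure D2:**
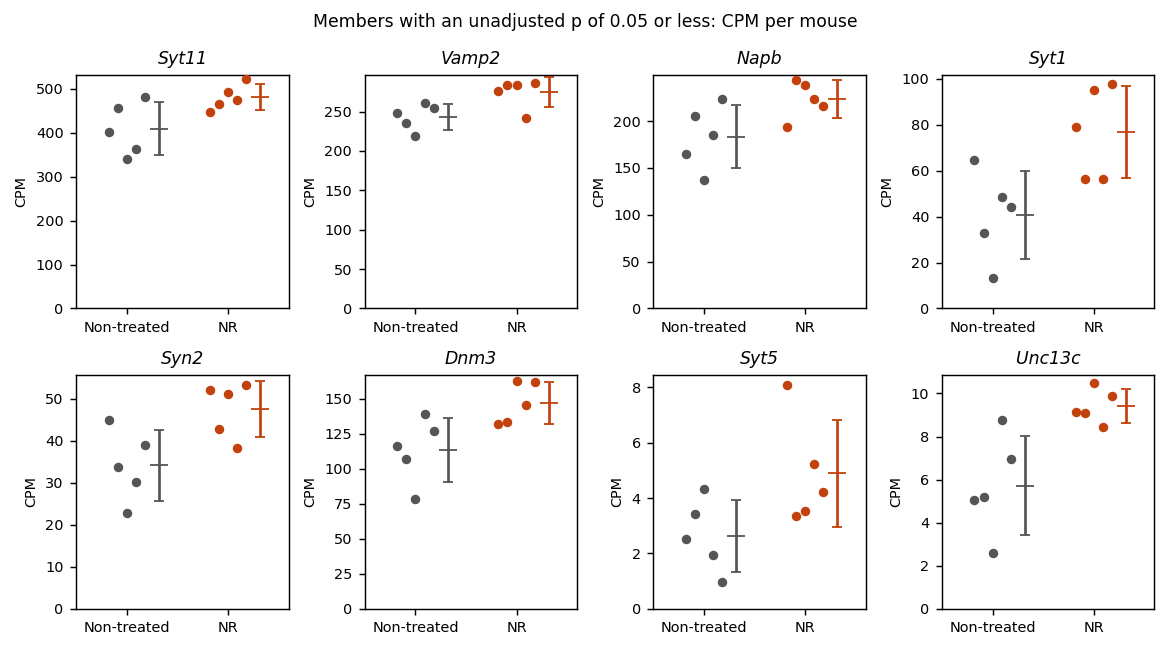
CPM (y axis, from 0) of the 8 members with an unadjusted p of 0.05 or less in each non-treated mouse (grey, in the order 1 to 5) and NR-treated mouse (orange, same order), with bars for the mean ± SD of each group of 5. Groups overlapped for all 8, least for Vamp2 and Unc13c, where 4 NR-treated mice were above every non-treated mouse.

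The vesicle membrane proteins SV2 and synaptophysin gave 0 of 4 members at an unadjusted p of 0.05, with all 4 log2 fold changes above 0 and a median of 0.18. Sv2a, the most abundant of the SV2 transporter-like proteins, was at 267, 337, 306, 321 and 302 CPM against 224, 320, 234, 265 and 351 CPM (log2 fold change 0.14, SE 0.12). Sv2b was at 85.9, 104, 124, 103 and 117 CPM with NR and at 85.6, 89.3, 53.5, 103 and 96.6 CPM without. In 4 NR-treated mice Sv2b was above every non-treated mouse, by little in mice 2 and 4, and the test gave a log2 fold change of 0.32 (SE 0.16, edgeR p = 0.0692, exact permutation p = 0.0635). Syp, the abundant vesicle protein synaptophysin, had 0.23 (SE 0.11, exact permutation p = 0.0952), and Sv2c had 0.13 (SE 0.07, exact permutation p = 0.151). Exons of Syp share 16.8% of their bases with the opposite-strand gene Gm14703.

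Of the active zone and priming genes, Unc13c (chr9:73479422-73968966) was the 1 of 5 that was higher at an unadjusted p of 0.05. It encodes Munc13-3, a priming factor best known from the cerebellum. Unc13c was at 9.16, 9.08, 10.5, 8.43 and 9.90 CPM in NR-treated mice and at 5.06, 5.21, 2.59, 8.77 and 6.97 CPM in non-treated mice. The NR-treated mice lay close together and the non-treated mice were spread, and NR mouse 4 was the only 1 of the 5 below a non-treated mouse (log2 fold change 0.72, SE 0.26, edgeR p = 0.0171, adjusted p = 0.458, exact permutation p = 0.0159). Unc13a, the Munc13-1 gene needed for release at most excitatory synapses, was at 60.1, 56.7, 69.2, 66.1 and 61.5 CPM against 58.3, 54.3, 45.1, 56.5 and 62.1 CPM (log2 fold change 0.18, SE 0.09, edgeR p = 0.0585, exact permutation p = 0.0714). The more widely expressed Unc13b had -0.08 (SE 0.12). The vesicle GTPase gene Rab3a had 0.15 (SE 0.10) and Rims1, which links Rab3 to the active zone, had 0.11 (SE 0.11).

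Of the 6 endocytosis genes, Dnm3 (chr1:161982453-162478034) was higher at an unadjusted p of 0.05. Dnm3, a dynamin found in brain and testis, was at 132, 133, 163, 146 and 162 CPM with NR and at 116, 107, 78.4, 139 and 127 CPM without. NR mice 3, 4 and 5 were above every non-treated mouse (log2 fold change 0.37, SE 0.13, edgeR p = 0.0175, adjusted p = 0.458, exact permutation p = 0.0317). Dnm1, the neuronal dynamin that pinches off vesicles, was at 756, 904, 821, 812 and 840 CPM against 646, 869, 653, 652 and 939 CPM (log2 fold change 0.14, SE 0.12). Amph, which recruits dynamin, had 0.13 (SE 0.09), and the phosphatase gene Synj1, which helps the clathrin coat come off, had 0.03 (SE 0.07). The clathrin light chain Cltb and the adaptor subunit Ap2m1 each had 0.08 (SE 0.06).

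Paralogs of a family differed by up to 162-fold in level per kilobase of exon. Shares and orders here are among the 33 members alone, which leave out other paralogs such as Dnm2 and Syt3. Per kilobase of exon, Cplx1 made up 98.8 ± 0.2% of the summed level of Cplx1 and Cplx2 in NR-treated mice and 98.9 ± 0.3% in non-treated mice (SD, n = 5 each), being 90.6-fold above Cplx2. Dnm1 was 28.2-fold above Dnm3 and held 96.3 ± 0.4% against 96.8 ± 0.8% of the summed level of the pair, while Dnm2, the dynamin of all tissues, was at 27.6 CPM per kilobase and so above Dnm3 at 5.33. Syn1 was 8.0-fold above Syn2 and 162-fold above Syn3 and held 87.5 ± 1.1% against 89.4 ± 1.5% of the 3 synapsins. In these 3 families, and in the Vamp, Nap and Unc13 families, the order of the paralogs per kilobase of exon was the same in all 10 mice. For Unc13a and Unc13b this order depends on the exon length, 12623 and 22746 bases. Without the length, Unc13b was at 61.5 CPM and Unc13a at 55.2 CPM in non-treated mice, and at 58.1 and 62.7 CPM with NR. In the Sv2 family, Sv2a led in all 10 mice and Sv2c was above Sv2b in 8. Among the 6 synaptotagmins of the list, Syt11, Syt2 and Syt7 kept the first 3 places in 10 mice, Syt4 and Syt1 exchanged places between mice, and Syt5 was the lowest in 9. Syt3, which is not on the list, was at 28.0 CPM per kilobase, close to Syt7 at 30.2.

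Among the 17 members in the upper part of the level order (Cplx1 to Syt7, 30.2 CPM per kilobase and over), 2 were higher at an unadjusted p of 0.05 and the median log2 fold change was 0.14. Among the other 16 (Napb at 28.8 CPM per kilobase and below), 6 were higher and the median was 0.23. Across the 33 genes, which share their libraries, Spearman's rho between level and log2 fold change was -0.12, and between level and its absolute size -0.34. Over all genes tested the median absolute log2 fold change was 0.234, 0.122, 0.0783 and 0.0682 in 4 groups of genes from the lowest to the highest level. For the 2, 6, 5 and 20 members in these groups it was 0.615, 0.146, 0.375 and 0.136, which is not a steady fall. The share of all genes tested with an unadjusted p of 0.05 or less in either direction did not fall with level. It was 9.75%, 8.82%, 9.73% and 10.5% in the same 4 groups. The largest log2 fold changes in each direction, Syt1 above 0 and Syn3 below, were both in the lower part. At low level the fold changes also varied more among mice, with the SE of Syt5 and Syn3 at 0.37 and 0.32 and that of Napa at 0.05.

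**Figure D3:**
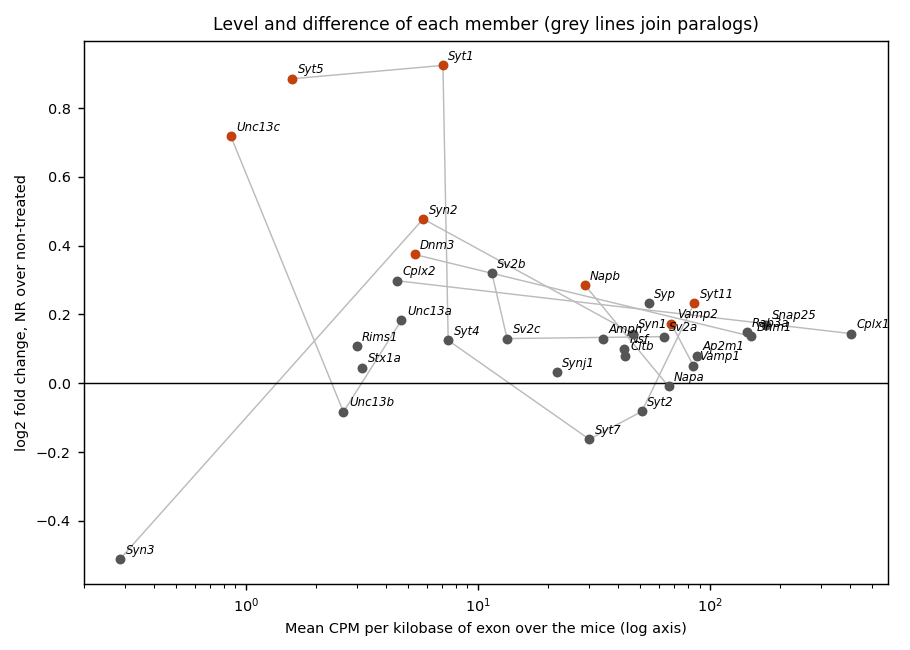
Mean level over the 10 mice in CPM per kilobase of exon (x axis, log scale) against the log2 fold change of NR-treated over non-treated mice (y axis) for the 33 members, with grey lines joining paralogs of a family and orange for an unadjusted p of 0.05 or less. Members above 100 CPM per kilobase lie between 0.14 and 0.17 on the log2 scale, while Syn3 and Syt1 mark the ends of the range.

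To compare paralogs within a mouse, the log2 ratio of the CPM of each rarer paralog to the most abundant paralog of its family was taken, which cancels any scaling that the pair shares. Of 15 ratios in 8 families, 4 differed at an exact permutation p of 0.05 and 0 after adjustment over the 15 (smallest adjusted p = 0.159). The largest was Unc13c to Unc13a, at -2.73 ± 0.14 with NR and -3.35 ± 0.51 without (SD, n = 5 each, difference 0.62, exact permutation p = 0.0317). Syn2 to Syn1 was -1.77 ± 0.16 against -2.10 ± 0.24 (difference 0.33, exact permutation p = 0.0476). The remaining pair of ratios went the other way. Syt7 to Syt11 was -1.22 ± 0.18 against -0.83 ± 0.16 (difference -0.39, exact permutation p = 0.0159), with 4 NR-treated mice below every non-treated mouse, and Syt2 to Syt11 was -0.36 ± 0.19 against -0.04 ± 0.13 (difference -0.32, exact permutation p = 0.0238). Within the synaptotagmins, the calcium sensors Syt2 and Syt7 were thus lower relative to Syt11 at an unadjusted p of 0.05, while the Syt1 to Syt11 ratio was higher (difference 0.82, exact permutation p = 0.0635). These ratios share Syt11, which was itself higher at an unadjusted p of 0.05 (log2 fold change 0.23), so they are not independent. Syt2 and Syt7 alone did not pass that p (log2 fold changes -0.08 and -0.16). Napb to Napa gave 0.31 (exact permutation p = 0.0556), and the other 9 ratios had p-values of 0.198 or more, Cplx2 to Cplx1 (difference 0.13) and Dnm3 to Dnm1 (difference 0.24) among them.

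**Figure D4:**
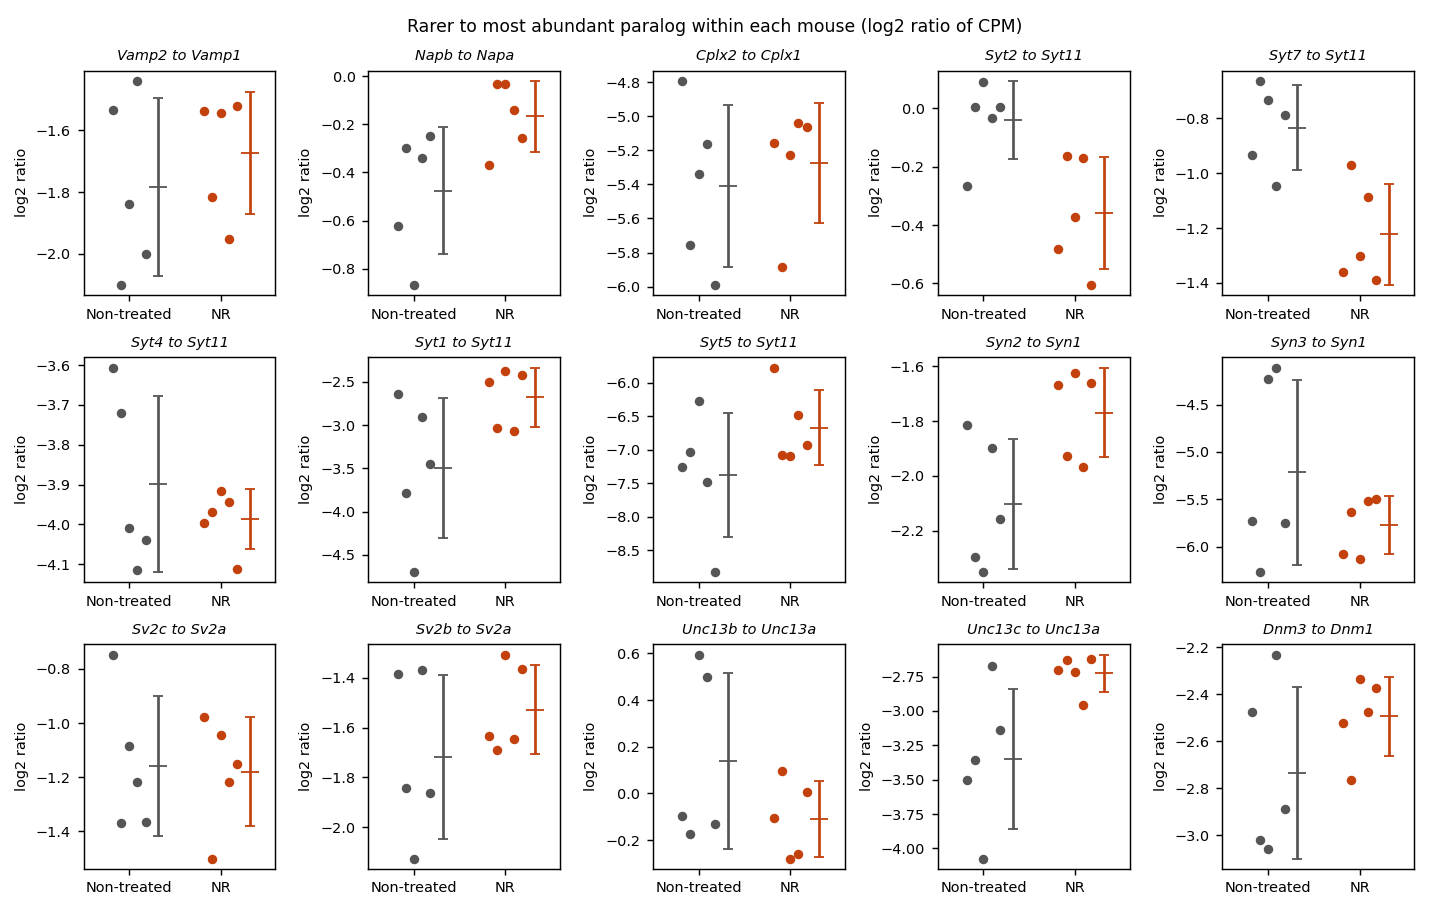
Log2 ratio of the CPM of the rarer to the most abundant paralog (y axis) in each non-treated (grey) and NR-treated (orange) mouse for 15 pairs, with the mean ± SD of each group of 5. Syt2 and Syt7 relative to Syt11 sit lower in NR-treated mice, and Unc13c to Unc13a and Syn2 to Syn1 sit higher, with overlap between the groups in every pair.

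The non-treated mice were unlike each other in these genes. The summed CPM of the 33 members was 7368, 9124, 6996, 7333 and 9638 in non-treated mice 1 to 5 and 8182, 9394, 8983, 8890 and 8797 in NR mice 1 to 5. Non-treated mice 2 and 5 thus reached the level of the NR-treated mice. In 17 of the 33 members these were the 2 highest non-treated mice (51.5%, against 12.2% of all genes tested). This held for 15 of the 17 more abundant members, all but Vamp2 and Napa, and for 2 of the other 16, Napb and Rims1. Non-treated mouse 3 was the lowest non-treated mouse in 14 of the 33 members (42.4%, against 21.3% of all genes tested). Vamp2, Napb, Syt1, Syt11, Syn2, Unc13c and Dnm3 were among these, and Syt5 was not. Among the fits without 1 mouse, the log2 fold changes of those 7 genes were smallest without this mouse. The members' median was then 0.10, also the smallest. The coefficient of variation among non-treated mice had a median of 18.4% over the members, and among NR-treated mice 7.92%. It was larger without treatment in 32 of 33 members, Stx1a being the exception, and in 62.5% of all genes tested.

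**Figure D5:**
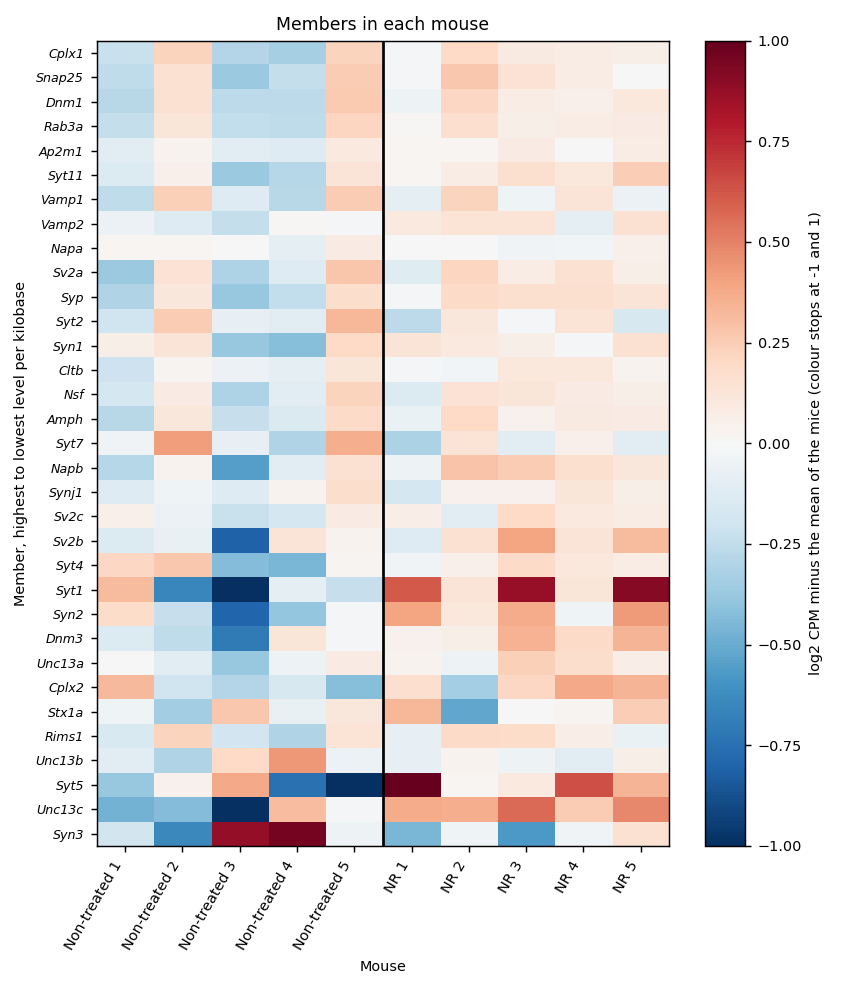
Log2 CPM of each member (rows, from the highest to the lowest level per kilobase) in each mouse (columns), as the difference from the mean of the 10 mice, with red above and blue below the mean and the colour limited at -1 and 1. Non-treated mice 2 and 5 are red in most of the upper rows, as are NR mice 2 to 5 but not NR mouse 1, and Syt1 and Syn2 are highest in NR mice 1, 3 and 5 and non-treated mouse 1.

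General neuron markers mostly had log2 fold changes above 0, as the members did (19 of 20), while spiral ganglion neuron markers were split (10 above and 8 below). Of 20 general neuron markers, 7 were higher and 1 lower (Map2) at an unadjusted p of 0.05, the median log2 fold change being 0.26, and their summed CPM was 8305 to 9105 (median 8799) with NR and 6342 to 9433 (median 7308) without. Of 18 spiral ganglion neuron markers, which share Nefh and Tubb3 with that list, 2 were higher and 2 lower, with a median of 0.01 and summed CPM of 3633 to 4555 with NR and 3166 to 5017 without. With the mean level of the neuron markers as a covariate in edgeR, 0 members were higher or lower at an unadjusted p of 0.05. Of all genes, 3.34% were higher and 7.2% lower in that fit. The log2 fold changes of Syt1, Syn2 and Syt11 were then 0.17, 0.01 and 0.03, those of Unc13c, Dnm3, Napb and Vamp2 were 0.60, 0.19, 0.18 and 0.13, and that of Syt5 was larger, at 1.24. When Prph and Gap43, the most variable of these markers, were left out of the covariate, 1 member was higher (Syt5), 1 was lower (Syt7) and the members' median log2 fold change was -0.013. There 4.22% of all genes were higher and 4.75% lower. With the level of the spiral ganglion neuron markers, 7 members were higher, 6 of the 8 and Syp, and Syt7 was lower, with a log2 fold change of -0.24. With this covariate 4.89% of all genes were higher and 3.98% lower. Whether neuron content accounts for the differences was not tested, since the covariate comes from the same libraries.

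Prph, a filament gene of peripheral neurons and the most variable of the neuron markers, was at 118, 3.44, 132, 26.8 and 147 CPM with NR and at 120, 2.47, 4.94, 2.03 and 3.90 CPM without. It was highest in NR mice 1, 3 and 5 and non-treated mouse 1, the 4 mice with the most Syt1 and Syn2. Of 16 autonomic ganglion markers, 10 passed the filter, 4 of them higher with NR and 0 lower (median log2 fold change 0.67). Their summed CPM was 89.2 to 120 with NR and 73.7 to 116 without, and Dbh and Chat were at or near 0 in all mice. The part of such neurons in the result was not tested.

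Other cell types also differed between the libraries. Of 12 skeletal muscle markers tested, 8 were higher with NR (median log2 fold change 2.72), with the summed CPM highest in NR mice 3 and 5, at 1369 and 1056, and at 269 to 497 in the other 8 mice. Without NR mice 3 and 5, edgeR called 1 member, Syt5, where 2.46% of all genes were higher. With these 3 NR-treated mice the log2 fold changes of the other 7 were 0.68 for Syt1, 0.65 for Unc13c, 0.39 for Syn2, 0.28 for Dnm3, 0.28 for Napb, 0.19 for Syt11 and 0.15 for Vamp2, all above 0. Of 10 adipocyte markers tested, 7 were higher (median 1.78). Of 20 hair cell markers, 0 were higher and 2 lower (median -0.45), with summed CPM of 790 to 1116 with NR and 783 to 1298 without. Of 14 Schwann cell markers, 1 was higher and 2 lower (median 0.11), of 11 central glia markers none passed in either direction (median -0.07), and of 10 central neuron markers none did (median 0.20). The part of these cells in the result was not tested.

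Outside the 33 members, 108 other genes of release and recycling were tested. Of these, 17 were higher and 2 lower at an unadjusted p of 0.05, the median log2 fold change being 0.03, and 6 had groups that did not overlap (Vamp4, Atp6v1b2, Snap47, Pclo, Slc17a6 and Rph3a). By family, 6 of 25 active zone and priming genes were higher, 5 of 21 vesicle proteins and transporters, 3 of 13 calcium sensors, 2 of 23 SNAREs and their regulators and 1 of 26 endocytosis genes. Rph3a, rabphilin, which binds Rab3 on the vesicle, was at 277, 304, 353, 292 and 335 CPM with NR and at 194, 186, 77.4, 218 and 246 CPM without. Every NR-treated mouse was above every non-treated mouse (log2 fold change 0.76, SE 0.24, edgeR p = 0.00909, adjusted p = 0.434, exact permutation p = 0.00794, the smallest it can give). The other 4 with the largest log2 fold changes among the 17 were Rab3b (0.93, SE 0.28), Sncg (0.90, SE 0.32), Syt13 (0.59, SE 0.19) and Slc17a6 (0.52, SE 0.19), a vesicular glutamate transporter. The 2 lower genes were Syt16 (-0.76, SE 0.28) and Stx7 (-0.14, SE 0.06). Syt16 and Rab3b were at low levels. Syt16 was at 0.861 CPM with NR and 1.47 CPM without, with 9 reads in its lowest library. Rab3b was at 3.47 and 1.81 CPM, with 23 reads in its lowest library.

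When each mouse was left out in turn, between 6 and 12 members were higher at an unadjusted p of 0.05. Of all genes, between 3.62% (without NR mouse 3) and 7.61% (without NR mouse 2) were higher in these fits. Vamp2, Syt1, Syn2, Unc13c and Dnm3 were called in each of the 10 fits, and Napb, Syt5 and Syt11 were not. Napb was lost without NR mouse 2, 3 or 4 or non-treated mouse 1, 3 or 4, Syt5 without NR mouse 1 or 4 or non-treated mouse 1, 4 or 5, and Syt11 without NR mouse 3 or 5 or non-treated mouse 1, 3 or 4. Without non-treated mouse 5, Snap25, Syp, Rab3a, Unc13a and Amph were also called.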

How the data were processed

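Total RNA of the cochlea of 10 mtKeima mice was sequenced by Novogene from NEBNext Ultra libraries. The deposited values are raw read counts per gene, 1 file per mouse, which the authors made, per their processing notes, with fastp, STAR 2.6.1d on mm10 and featureCounts 1.5.0, whose default mode ignores strand, and DESeq2 1.26.0 is also named there. The annotation release was not given in the sources used here, and reads were not realigned. The labels give no batch.

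Counts were normalized with TMM in edgeR 4.0.16 (R 4.3.3), filtered with filterByExpr and tested with the quasi-likelihood test over 18329 genes, NR against Vehicle without covariates, with Benjamini-Hochberg adjustment. The standard error is the absolute log2 fold change divided by the root of F. CPM are TMM-scaled, and CPM per kilobase use the exon length in the files. Paralog ratios used log2 CPM with a prior count of 2 and exact two-sided permutation tests over the 252 labelings, which can give no p below 0.00794. The 95% intervals are from edgeR. The scripts were tested on simulated data. No pair of libraries within a group held the same counts within sampling noise, and pairs between the groups were not compared. The labels do not say that mice of 1 group came from separate litters or cages.

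The 33 members and all gene and motif lists were chosen with earlier results of these data known. Per-mouse values are given for members with an unadjusted p of 0.05 or less and for the most and least abundant paralog of each family, and of other genes up to 5 in each direction with the largest change at that p are named. Alternatives were other normalizations, filters, DESeq2 1.42.0, a robust fit, a replicate block, marker covariates and left-out libraries. The spiral ganglion covariate, the neuron covariate without Prph and Gap43 and the left-out muscle libraries were chosen after seeing the data. A marker gene is not reported here. Figures were drawn with matplotlib 3.10.9 in Python 3.11.15.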

Additional observations from a re-analysis of the deposited data

Results flagged for a closer look

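Values of a mouse that stood apart from the other 4 of its group, by Dixon's ratio of its gap to the range (limit 0.71 for 5 mice), were found in 4 of 96 groups, and chance gives about 1 in 20. NR mouse 4 was low for Vamp2 (ratio 0.78), at 241 CPM against 277 to 287 CPM. NR mouse 1 was low for Synj1 (ratio 0.71), at 156 CPM against 181 to 191 CPM. NR mouse 2 was low for the log2 ratio of Cplx2 to Cplx1 (ratio 0.782), at -5.89 against -5.23 to -5.04. NR mouse 4 was low for the log2 ratio of Unc13c to Unc13a (ratio 0.728), at -2.96 against -2.71 to -2.62.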

How the results depend on the processing

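The count of 8 higher members was within 1.5 times under the other normalizations, filters, DESeq2, the robust fit and the replicate block (8 to 11), and was 0 with the neuron marker covariate, 1 with that covariate without Prph and Gap43, 1 without NR mice 3 and 5, and 6 to 12 without 1 mouse. The count of lower members was 1 with the spiral ganglion covariate (Syt7), 1 with the neuron covariate without Prph and Gap43 (Syt7), and 0 to 1 without 1 mouse (Syn3 without non-treated mouse 2). Under that covariate the members' median log2 fold change was -0.013. Of the other release genes, 2 were higher with either neuron covariate, 7 without NR mice 3 and 5 and 15 to 22 without 1 mouse. The lower ones numbered 1 with upper quartile normalization, 0 with at least 10 reads, 5 with the neuron and 5 with the spiral ganglion covariate, 4 with the neuron covariate without Prph and Gap43, 0 without NR mice 3 and 5, and 1 to 6 without 1 mouse. Over all genes, the split of higher to lower calls was 886 to 894 with TMM, 1116 to 664 with upper quartile normalization, 612 to 1320 with the neuron covariate and 1162 to 1021 with DESeq2 (102 after adjustment). The share of all genes that were higher was 3.34% with the neuron covariate and 2.46% without NR mice 3 and 5. It was 3.62% to 7.61% without 1 mouse.

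Among the 18 members given by mouse, the sign turned for Napa with upper quartile normalization (0.0105), with a filter of at least 1 read (0.0048) and of at least 10 reads (0.0016), and without 1 mouse (-0.030 to 0.011). It turned with the neuron covariate for Cplx2 (-0.032), Syn1 (-0.14), Syn3 (0.34) and Unc13a (-0.017), with the spiral ganglion covariate for Vamp1 (-0.018), with the neuron covariate without Prph and Gap43 for Vamp1 (-0.13), Cplx1 (-0.10), Syn1 (-0.13), Syn3 (0.25), Sv2a (-0.076) and Dnm1 (-0.082), and without 1 mouse for Vamp1 (-0.0054 to 0.13). Over all 33 members the sign turned for 8 with the neuron covariate, for 16 with that covariate without Prph and Gap43, and for 2 with the spiral ganglion covariate. The causes were not tested.

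Mice with the same replicate number correlated at 0.170, -0.118, -0.220, 0.016 and 0.133 in their deviations, so the numbers were not taken as pairs. With the replicate block 8 members were higher, 7 of them shared with the fit without it (Vamp2 was replaced by Syp). Of the paralog ratios, 4 had a p of 0.05 or less, 0 in a paired permutation test with the replicate block, whose smallest p is 0.0625, and 2 to 5 without 1 mouse (2 without NR mouse 5).

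Depth limited the rarest genes, since Syt5 had 21 reads and Syn3 46 in their lowest libraries, while other members had at least 64.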
